A study of Homo sapiens with 12 samples.

Results

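Ribosome biogenesis genes encode the machinery that makes ribosomes: RNA polymerase I (Pol I) and its promoter factors, which transcribe ribosomal RNA (rRNA), the small nucleolar ribonucleoproteins (snoRNPs), which chemically modify and cut it, and the nucleolar factors that fold it into the small and large subunits. The set described here holds 42 such genes, chosen by symbol as genes of nucleolar rRNA processing and Pol I, of which many depend on MYC. All 42 were found among the 56609 symbols of the deposited count table, and all 42 passed the filter on low counts, as did 21698 symbols in all.

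The cells were A375, an established human malignant melanoma line grown from skin. Wild-type A375 and A375 with MAPKAPK2 (MK2, a stress-activated kinase downstream of p38) knocked out by CRISPR/Cas9 were each kept for 48 h in DMSO, the solvent control, or in 500 nM JQ1, with 3 libraries in each of the 4 groups. JQ1 is a small molecule that occupies the bromodomains of BET proteins and displaces them from acetylated chromatin. The study was set up to ask how loss of MAPKAPK2 goes with resistance to BET inhibitors. The labels do not say whether the knockout is 1 clone or a pool, nor whether the 3 replicates were separate cultures, so the p-values measure the spread between these libraries, which may be technical. MAPKAPK2 itself, the check of the labels, was at 88.8, 87.9 and 92.1 CPM (counts scaled to a common library size) in wild type with DMSO and at 11.1, 13.2 and 13.02 CPM in the knockout with DMSO. With JQ1 it was at 119, 119.7 and 112 CPM in wild type and at 14.9, 12.6 and 15.7 CPM in the knockout, so all 6 knockout libraries lay below all 6 wild-type libraries.

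In the nucleolus, Pol I is brought to the rRNA gene promoter by UBTF and by the SL1 complex, which holds the TAF1 proteins. Box C/D snoRNPs (NOP56, NOP58 and the methyltransferase FBL) guide methylation of rRNA, and box H/ACA snoRNPs (DKC1, NHP2, NOP10 and GAR1) guide its conversion to pseudouridine. Many of these genes have promoters that hold the E-box CACGTG, the letters bound by MYC with its partner MAX, and BET inhibitors are known for lowering MYC in several tumour types.

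Libraries held 25316900 to 34594300 estimated counts. The knockout library with JQ1 numbered 3 stood apart, with 14.6% of its counts in 4 short noncoding RNAs (RMRP, RN7SK, RN7SL2 and RN7SL1) against 9.42% to 12.3% in the other 11, and it lay furthest from the other libraries of its group over all genes. The melanoma markers SOX10 and MITF were present (group means of 437 to 563 CPM and 28.8 to 43.1 CPM), while the pigment genes MLANA, PMEL, TYR and DCT had group means of at most 1.18 CPM. The leukocyte marker PTPRC and the epithelial markers EPCAM and KRT19 had group means of 0.202 CPM or less. The epithelial markers KRT8 and KRT18 were expressed, at group means of 15.3 to 17.5 CPM and 125 to 139.6 CPM. The fibroblast marker PDGFRB had group means of 2.22 to 10.4 CPM. COL1A1 and COL1A2 (fibroblast) and PECAM1 and VWF (endothelial) had at most 1.06 CPM. The summed level of the 10 other-cell markers was 144 to 173 CPM over all libraries.

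The promoter letters of 8 members are shown first, because many of the genes are described as dependent on MYC, and MYC binds the E-box. The windows are RefSeq promoters (build GRCh38.p14) from 70 bases before the annotated start to 30 after it, written 5′ to 3′ on the gene's own strand, with CACGTG in capitals. The 8 were chosen after their values were seen, to give members that rose with JQ1 (RRP9, PES1), members that fell (DDX21, WDR43, NOC3L, GNL3, FBL) and a member that passed no test (NOP10).
RRP9 (chr3:51941875-51941974, minus strand): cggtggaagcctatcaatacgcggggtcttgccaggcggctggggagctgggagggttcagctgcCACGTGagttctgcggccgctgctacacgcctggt
PES1 (chr22:30591881-30591980, minus strand): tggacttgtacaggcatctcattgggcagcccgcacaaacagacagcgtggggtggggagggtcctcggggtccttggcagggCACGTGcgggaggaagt
DDX21 (chr10:68956577-68956676, plus strand): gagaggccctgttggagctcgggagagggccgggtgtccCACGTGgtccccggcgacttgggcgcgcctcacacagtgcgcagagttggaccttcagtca
WDR43 (chr2:28894597-28894696, plus strand): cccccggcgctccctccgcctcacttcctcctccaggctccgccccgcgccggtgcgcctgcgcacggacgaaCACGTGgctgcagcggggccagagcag
NOC3L (chr10:94362910-94363009, minus strand): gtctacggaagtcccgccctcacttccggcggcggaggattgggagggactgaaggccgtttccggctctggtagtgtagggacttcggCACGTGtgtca
GNL3 (chr3:52685962-52686061, plus strand): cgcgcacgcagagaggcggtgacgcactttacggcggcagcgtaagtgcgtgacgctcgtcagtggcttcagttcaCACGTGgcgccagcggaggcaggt
FBL (chr19:39846350-39846449, minus strand): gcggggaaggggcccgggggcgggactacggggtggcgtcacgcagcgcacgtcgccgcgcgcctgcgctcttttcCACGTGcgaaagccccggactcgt
NOP10 (chr15:34343107-34343206, minus strand): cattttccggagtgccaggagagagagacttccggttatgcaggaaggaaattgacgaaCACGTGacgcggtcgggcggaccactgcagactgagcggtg

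A RefSeq window from 250 bases before to 50 after the start was given for 35 of the 42 members. POLR1E, NOP58, NOLC1, RRP12, BOP1, RRP1B and RRS1 had none. CACGTG, which reads the same on both strands, was in a window of 15 of the 35 members (42.9%), against 2396 of 27305 genes (8.77%) in the whole table and 1435 of 11947 tested genes (12.01%). In 12 members (34.3%) it lay within the stretch from 50 bases before to 30 after the start, a stretch that was set after the positions were seen. The share was 3.11% of all genes and 4.52% of tested genes. When CACGCG and CATGTG were counted beside it, on both strands, 26 of the 35 members (74.3%) had at least 1 match. So did 31.3% of all genes and 37.0% of tested genes. Many of the genes were listed as dependent on MYC when the set was chosen, so its share of E-boxes may describe the choice.

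The E-box was found in members of both directions of drug response. CACGTG was in the windows of 4 of 7 members that rose in at least 1 genotype, 7 of 12 that fell, and 4 of 16 that passed no test. RRP9, whose CACGTG begins 5 bases before the start, was among the members with the largest rises, and DDX21, with CACGTG 31 bases before the start, was among those with the largest falls. WDR12, WDR75 and TAF1D fell and NOC4L rose with no CACGTG in their windows.

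JQ1 split the set. The libraries are bulk RNA, in which fewer cells of a kind and less RNA per cell cannot be told apart. In wild type, 7 members rose and 11 fell (42.9% of the 42 called), against 33.1% of all tested genes called in either direction, 16.9% higher and 16.2% lower. In the knockout, 6 rose and 13 fell (45.2%), against 34.4% of all tested genes, 16.7% higher and 17.8% lower. Among the 9509 tested genes whose mean level reached 10 CPM, as all 42 members did, 47.2% were called in wild type and 50.4% in the knockout, so the members were called about as often as other genes of such levels. Within those 9509 genes 30.4% were higher and 16.8% lower in wild type, and 29.5% were higher and 20.9% lower in the knockout, while among the members the split was 7 higher to 11 lower and 6 higher to 13 lower. The wild-type order of rises and falls was not kept in 3 of 23 alternatives. It was 14 higher and 12 lower with only the compared groups in the fit, 6 and 6 without wild-type DMSO library 1, and 12 and 12 without knockout JQ1 library 3. In the knockout the falls were more numerous in all 23. A gene is called here when its adjusted p (edgeR quasi-likelihood test, Benjamini-Hochberg over all tested genes) was under 0.05.

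The changes were small. In wild type the members' log2 fold changes ran from -0.42 to 0.52, with a median of -0.01 against -0.03 over all tested genes. The median size of the change, without its sign, was 0.18 for the members and 0.29 for all tested genes. The latter take in many genes of lower level than the members, so these 2 sizes are not matched for level. In the knockout they ran from -0.54 to 0.46, with a median of -0.07 against 0.00. Scaled by library totals alone, which shifts the median of all genes by -0.13 in wild type and -0.12 in the knockout, the split was 2 higher and 19 lower in wild type and 3 higher and 21 lower in the knockout. The balance of rises and falls therefore moves with the scaling too, and the changes below are relative to the bulk of genes. The shares of all tested genes called under library totals alone, or with a library left out, are not given here. Without knockout JQ1 library 3, the one that stood apart, 12 members rose and 12 fell in wild type, and 5 rose and 14 fell in the knockout. The wild-type falls were 6 or 7 without wild-type DMSO library 1, 2 or 3 or wild-type JQ1 library 1 or 2, and the wild-type rises were 3 without wild-type JQ1 library 1. Knockout rises were 3 without knockout DMSO library 3 or knockout JQ1 library 1.

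**Figure D1:**
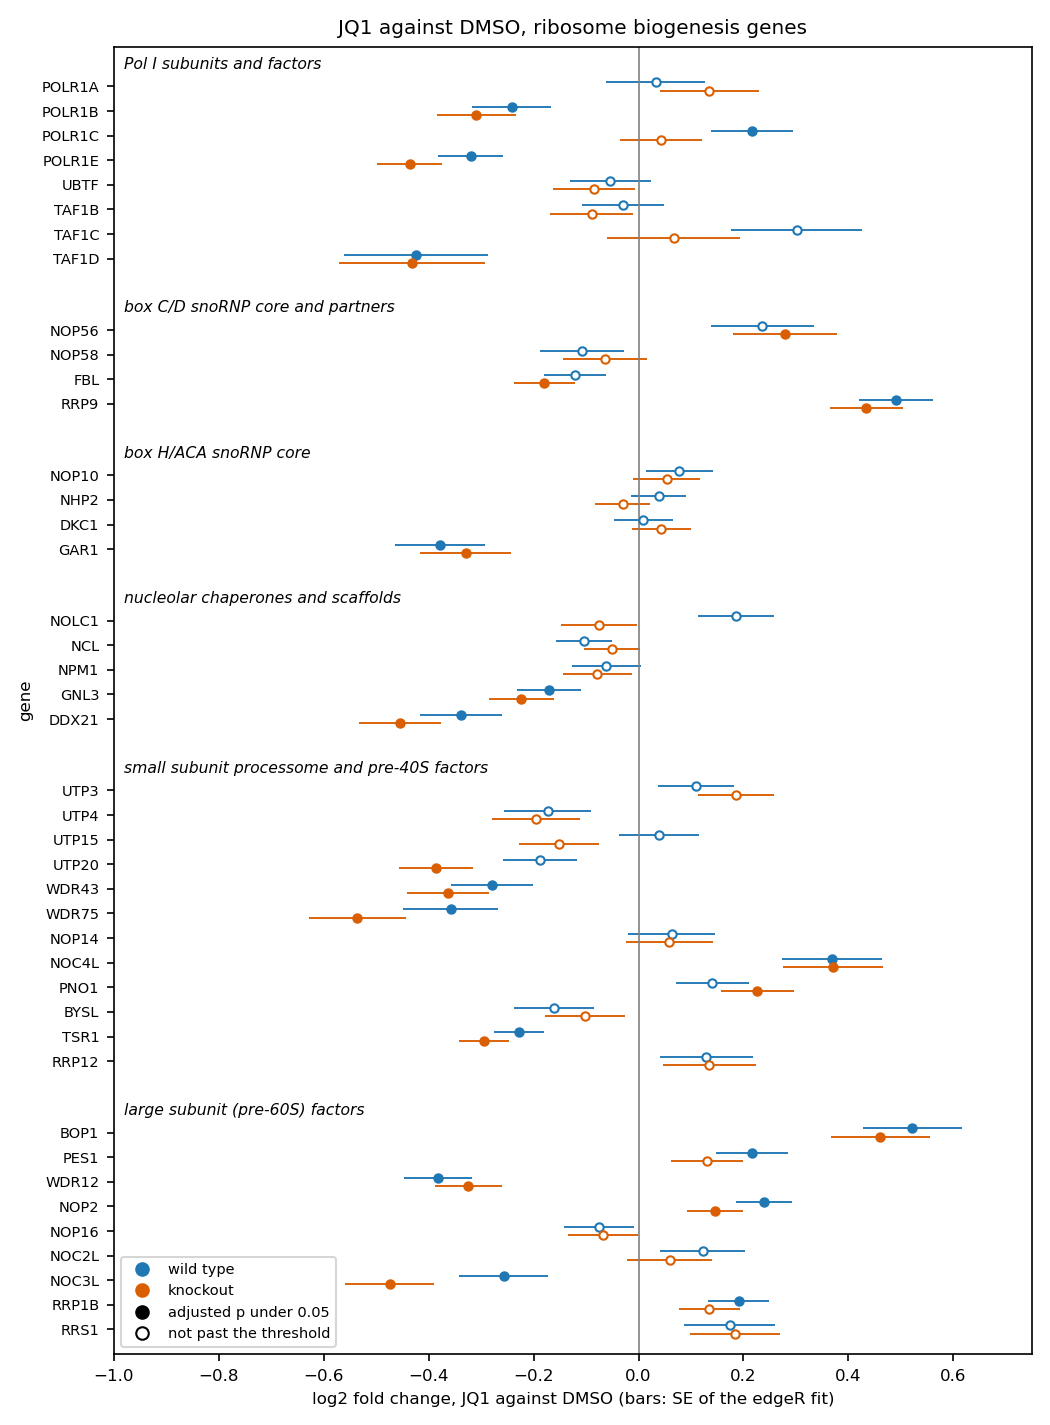
Log2 fold change of each of the 42 members with JQ1 against DMSO (x axis), in wild type (blue) and in the knockout (orange), by role; bars are the standard error of the edgeR fit and filled points passed an adjusted p of 0.05. BOP1, RRP9 and NOC4L stand furthest to the right and WDR75, NOC3L, DDX21, POLR1E and TAF1D furthest to the left in 1 genotype or both.

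Of the 8 Pol I genes, 3 fell in both genotypes (POLR1B, POLR1E and TAF1D), and POLR1C rose in wild type. Over all tested genes 16.2% were lower and 16.9% higher in wild type, and 17.8% lower and 16.7% higher in the knockout. POLR1B, one of the core subunits that form the active centre, was at 109, 106 and 108 CPM with DMSO and 90.2, 88.99 and 93.8 CPM with JQ1 in wild type. Knockout levels of POLR1B were 132, 121 and 122 CPM with DMSO and 111, 104 and 87.3 CPM with JQ1. Every JQ1 library lay below every DMSO library of the same genotype. The log2 fold change was -0.24 ± 0.07 (SE, adjusted p = 0.0221) in wild type and -0.31 ± 0.07 (adjusted p = 0.00491) in the knockout. In wild type the call was lost without wild-type DMSO library 1, 2 or 3 or wild-type JQ1 library 1 or 2. POLR1E, a Pol I subunit of the heterodimer that helps initiation, changed by -0.32 ± 0.06 (adjusted p = 0.00104) in wild type and by -0.44 ± 0.06 (adjusted p = 6.99e-05) in the knockout, and was called under each of the 22 alternative analyses.

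The largest subunit, POLR1A, was at 75.8, 75.6 and 72.6 CPM with DMSO and 78.2, 78.5 and 72.5 CPM with JQ1 in wild type. Knockout levels of POLR1A were 66.9, 79.9 and 80.1 CPM with DMSO and 73.8, 78.03 and 97.1 CPM with JQ1. The groups overlapped in both genotypes, and the 95% intervals of the log2 fold change were -0.17 to 0.23 in wild type and -0.07 to 0.34 in the knockout. POLR1C, a subunit shared with RNA polymerase III, rose in wild type by 0.22 on the log2 scale (adjusted p = 0.0445) and had a value of 0.04 (adjusted p = 0.718) in the knockout.

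UBTF, which bends rRNA gene promoters for Pol I, was at 104, 106 and 105 CPM with DMSO and 107, 103 and 93.5 CPM with JQ1 in wild type. Knockout levels of UBTF were 101, 108 and 107 CPM with DMSO and 89.1, 95.8 and 113 CPM with JQ1. The groups overlapped, and the 95% intervals of its log2 fold change were -0.22 to 0.11 and -0.25 to 0.08. Of TAF1B, TAF1C and TAF1D, the 3 subunits of SL1 in the set, only TAF1D passed the test. TAF1A, an SL1 subunit outside the set that is named here after its value was seen, also fell, by 0.35 in wild type (adjusted p = 0.0215) and by 0.41 in the knockout (adjusted p = 0.0116). TAF1D was at 30.3, 29.4 and 28.4 CPM with DMSO and 16.7, 21.2 and 27.7 CPM with JQ1 in wild type, where the JQ1 libraries were spread widely but all lay below the DMSO libraries. Knockout levels of TAF1D were 31.9, 25.1 and 26.5 CPM with DMSO and 20.3, 20.5 and 21.1 CPM with JQ1. Its log2 fold changes were -0.42 ± 0.14 (adjusted p = 0.0275) and -0.43 ± 0.14 (adjusted p = 0.0256). The wild-type call was lost without the same 5 libraries as for POLR1B, and the knockout call without knockout DMSO library 1 or knockout JQ1 library 1 or 2. TAF1D is also a host of 8 snoRNA genes, so its count can hold reads from them. TAF1C had a value of 0.30 (adjusted p = 0.0789) in wild type and TAF1B one of -0.03 (adjusted p = 0.809), and in the knockout they had 0.07 and -0.09.

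The box C/D partners went different ways. RRP9, the protein that binds U3 snoRNA and joins the U3 snoRNP, was at 32.3, 36.2 and 37.8 CPM with DMSO and 50.7, 49.3 and 49.3 CPM with JQ1 in wild type. Knockout levels of RRP9 were 37.2, 40.2 and 40.3 CPM with DMSO and 50.03, 53.2 and 55.6 CPM with JQ1. All 6 JQ1 libraries lay above all 6 DMSO libraries. The log2 fold change was 0.49 ± 0.07 (adjusted p = 7.83e-05) in wild type and 0.43 ± 0.07 (adjusted p = 0.000205) in the knockout.

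NOP56, a core scaffold of the box C/D particle, was at 51.8, 62.9 and 58.6 CPM with DMSO and 66.8, 75.2 and 62.2 CPM with JQ1 in wild type. Knockout levels of NOP56 were 53.6, 61.3 and 59.9 CPM with DMSO and 80.3, 68.1 and 63.8 CPM with JQ1. The wild-type groups overlapped and the knockout groups did not. NOP56 rose in the knockout (0.28, adjusted p = 0.0402) and had a similar value of 0.24 (adjusted p = 0.081) in wild type. Its close relative NOP58 had values of -0.11 and -0.06 and passed in neither.

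FBL, the methyltransferase, was at 152, 157 and 172 CPM with DMSO and 149, 149.7 and 142 CPM with JQ1 in wild type. Knockout levels of FBL were 196, 178 and 181 CPM with DMSO and 159.8, 165 and 166 CPM with JQ1. The drug groups did not overlap in either genotype. FBL fell with JQ1 in the knockout (-0.18 ± 0.06, adjusted p = 0.0271), and in wild type its value was -0.12 ± 0.06 (adjusted p = 0.13). Leaving out either of 2 knockout DMSO libraries (1 or 3) or either of 2 knockout JQ1 libraries (1 or 2) ended the call.

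In the box H/ACA particle only GAR1 passed. GAR1 fell by 0.38 on the log2 scale in wild type (adjusted p = 0.00336) and by 0.33 in the knockout (adjusted p = 0.00841), from group means of 18.6 to 14.3 CPM in wild type. DKC1, the pseudouridine synthase of the same particle, was at 101, 105 and 101 CPM with DMSO and 108, 99.2 and 101 CPM with JQ1 in wild type. Knockout levels of DKC1 were 104, 108 and 109.6 CPM with DMSO and 116, 111 and 104 CPM with JQ1. The groups overlapped, and the 95% intervals of its log2 fold change were -0.11 to 0.13 in wild type and -0.08 to 0.17 in the knockout. NHP2 and NOP10, the other core proteins, had values of 0.04 and 0.08 in wild type and of -0.03 and 0.05 in the knockout.

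Among the nucleolar chaperones and scaffolds, DDX21 and GNL3 fell in both genotypes. DDX21, an RNA helicase that works with Pol I and on snoRNA binding, went from group means of 457 to 361 CPM in wild type. Its log2 fold change was -0.34 ± 0.08 (adjusted p = 0.00382) there and -0.45 ± 0.08 (adjusted p = 0.000374) in the knockout. GNL3 (nucleostemin) had -0.17 (adjusted p = 0.046) and -0.22 (adjusted p = 0.0112), and its wild-type call held in 7 of 22 alternatives. NCL (nucleolin) was at 324, 326 and 342 CPM with DMSO and 319, 304 and 301 CPM with JQ1 in wild type. Knockout levels of NCL were 366, 356 and 342 CPM with DMSO and 328, 366 and 335 CPM with JQ1. The JQ1 libraries of wild type lay below its DMSO libraries, yet the value of -0.10 (adjusted p = 0.161) did not pass, and the knockout groups overlapped.

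NPM1 (nucleophosmin), the abundant chaperone of the outer nucleolus, was at 2419, 2363 and 2430.5 CPM with DMSO and 2175, 2325 and 2412 CPM with JQ1 in wild type. Knockout levels of NPM1 were 2737, 2409.8 and 2396 CPM with DMSO and 2553, 2423 and 2167 CPM with JQ1. The groups overlapped in both genotypes, with 95% intervals of -0.20 to 0.08 and -0.22 to 0.06. In wild type with DMSO, NPM1 held a mean of 2404 of the 6301 CPM summed over the members. Per kilobase of transcript it stood first there at 1553 CPM, ahead of FBL at 138 and NHP2 at 131. The annotation names 45 NPM1 pseudogenes, so its count is uncertain. NOLC1, a snoRNP chaperone, had values of 0.19 (adjusted p = 0.0637) in wild type and -0.07 (adjusted p = 0.473) in the knockout.

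**Figure D2:**
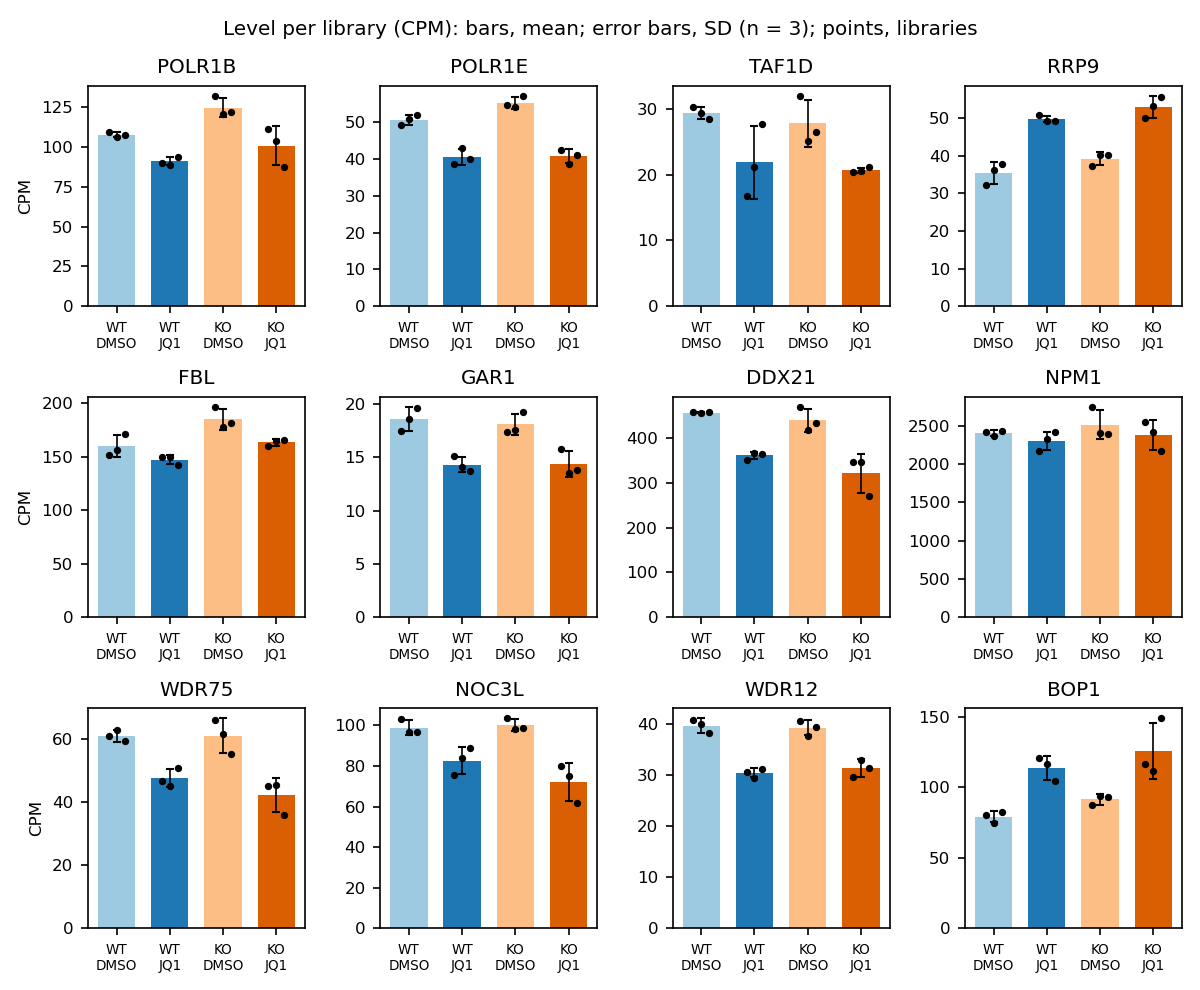
Level of 12 members in every library (y axis, CPM from 0); bars are group means, error bars are SD over 3 libraries and points are the libraries, for wild type (blue) and knockout (orange) with DMSO (pale) or JQ1 (dark). RRP9 and BOP1 are higher in all JQ1 libraries than in the DMSO libraries of the same genotype. POLR1B, POLR1E, TAF1D, FBL, GAR1, DDX21, WDR75, NOC3L and WDR12 are lower, and NPM1 overlaps.

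Of the 12 small subunit factors, 3 fell and 1 rose in wild type, against 16.2% and 16.9% of all tested genes. In the knockout 4 fell and 2 rose, against 17.8% and 16.7%. WDR75, of the first complex to bind the growing transcript, was at 60.8, 62.8 and 59.1 CPM with DMSO and 46.5, 45.1 and 50.8 CPM with JQ1 in wild type. Knockout levels of WDR75 were 65.98, 61.6 and 55.2 CPM with DMSO and 45.1, 45.4 and 35.8 CPM with JQ1. No JQ1 library reached a DMSO library in either genotype. The log2 fold change was -0.36 ± 0.09 (adjusted p = 0.00691) in wild type and -0.54 ± 0.09 (adjusted p = 0.000339) in the knockout, the largest fall among the members.

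WDR43, a partner of WDR75 in that complex, fell by 0.28 in wild type (adjusted p = 0.0126) and 0.36 in the knockout (adjusted p = 0.00214) on the log2 scale. UTP4 and UTP15, of the same complex, had values of -0.17 and 0.04 in wild type and -0.20 and -0.15 in the knockout and did not pass. TSR1, a late assembly factor of the small subunit, had values of -0.23 (adjusted p = 0.00188) and -0.29 (adjusted p = 0.000222) and fell in both. UTP20 fell in the knockout (-0.39, adjusted p = 0.000602), with a wild-type value of -0.19 just outside the threshold (adjusted p = 0.0533).

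Rises among the small subunit factors were those of NOC4L in both genotypes and of PNO1 in the knockout. NOC4L, which acts with NOP14, rose from a mean of 15.2 to 19.6 CPM in wild type, by 0.37 ± 0.10 on the log2 scale (adjusted p = 0.00795), and by 0.37 ± 0.10 (adjusted p = 0.00736) in the knockout. PNO1, which helps to position the final cut of the small subunit rRNA, had 0.23 (adjusted p = 0.0204) in the knockout and 0.14 (adjusted p = 0.142) in wild type. UTP3, NOP14, BYSL and RRP12 passed in neither genotype, with log2 fold changes of 0.11, 0.06, -0.16 and 0.13 in wild type and of 0.19, 0.06, -0.10 and 0.13 in the knockout.

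The large subunit factors gave the largest rise and one of the largest falls, within 1 complex. BOP1, PES1 and WDR12 form the PeBoW complex, which is needed to process the large subunit rRNA. BOP1 was at 80.6, 74.5 and 82.2 CPM with DMSO and 121, 116 and 104 CPM with JQ1 in wild type. Knockout levels of BOP1 were 87.01, 93.6 and 93.2 CPM with DMSO and 116, 112 and 149 CPM with JQ1. Every JQ1 library lay above every DMSO library, and knockout library 3 with JQ1, the one that stood apart, was the highest. The log2 fold change was 0.52 ± 0.09 (adjusted p = 0.000597) in wild type and 0.46 ± 0.09 (adjusted p = 0.00141) in the knockout, and BOP1 was also called without that library.

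PES1 was at 83.96, 87.7 and 87.7 CPM with DMSO and 104, 106 and 92.1 CPM with JQ1 in wild type. Knockout levels of PES1 were 88.7, 89.9 and 94.6 CPM with DMSO and 96.2, 93.9 and 109 CPM with JQ1. Its wild-type groups did not overlap and its knockout groups did. PES1 rose in wild type (0.22 ± 0.07, adjusted p = 0.0246), and its knockout value was 0.13 ± 0.07 (adjusted p = 0.165). The wild-type call was lost without wild-type DMSO library 1 or wild-type JQ1 library 1 or 2.

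WDR12 went the other way. It was at 40.9, 40.1 and 38.2 CPM with DMSO and 30.6, 29.5 and 31.3 CPM with JQ1 in wild type. Knockout levels of WDR12 were 40.7, 37.7 and 39.5 CPM with DMSO and 29.7, 33.1 and 31.4 CPM with JQ1. All 6 JQ1 libraries lay below all 6 DMSO libraries. The log2 fold change was -0.38 ± 0.06 (adjusted p = 0.000325) in wild type and -0.32 ± 0.06 (adjusted p = 0.00114) in the knockout.

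NOC3L and NOC2L, which pair during assembly of the large subunit, also differed in their calls. NOC3L was at 103, 96.8 and 96.5 CPM with DMSO and 75.5, 83.7 and 88.8 CPM with JQ1 in wild type. Knockout levels of NOC3L were 103, 98.2 and 98.4 CPM with DMSO and 79.7, 74.8 and 61.6 CPM with JQ1. The groups did not overlap in either genotype, and knockout library 3 with JQ1 was the lowest. NOC3L fell by 0.26 in wild type (adjusted p = 0.0303) and by 0.47 in the knockout (adjusted p = 0.000519) on the log2 scale. NOC2L had values of 0.12 and 0.06 and did not pass.

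NOP2, an rRNA methyltransferase, rose in both genotypes, by 0.24 (adjusted p = 0.00303) and 0.15 (adjusted p = 0.048), and the knockout call held in 3 of 22 alternatives. RRP1B rose in wild type (0.19, adjusted p = 0.0197), with 0.14 (adjusted p = 0.0863) in the knockout. RRS1, which helps to bring the small ribosomal RNA of the large subunit into place, was at 36.4, 38.5 and 38.8 CPM with DMSO and 44.00, 41.3 and 42.9 CPM with JQ1 in wild type. Knockout levels of RRS1 were 41.5, 42.03 and 43.8 CPM with DMSO and 44.5, 43.5 and 56.5 CPM with JQ1. The wild-type groups did not overlap, but values of 0.17 (adjusted p = 0.142) and 0.18 (adjusted p = 0.117) did not pass. NOP16 had values of -0.08 and -0.07.

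Some calls hung on single libraries. In wild type, POLR1C was lost without 8 of the 12 libraries in turn (all but wild-type DMSO 3, wild-type JQ1 2 and knockout JQ1 1 and 3; highest adjusted p 0.201). GNL3 was lost without 10 (all but wild-type JQ1 3 and knockout JQ1 3; highest adjusted p 0.193), and NOC3L without 7 (wild-type DMSO 1, 2 and 3, wild-type JQ1 1 and 2, knockout DMSO 2 and 3; highest adjusted p 0.148). RRP1B was lost without wild-type DMSO 3 or wild-type JQ1 1 or 2 (highest adjusted p 0.0743), WDR43 without wild-type DMSO 1 or wild-type JQ1 1 (0.0613 at most) and NOC4L without wild-type JQ1 1 (adjusted p = 0.051).

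For the knockout calls, NOP2 was lost without each of the 12 libraries in turn (highest adjusted p 0.128). NOP56 was lost without 7 (wild-type DMSO 3, wild-type JQ1 1, knockout DMSO 1, 2 and 3, knockout JQ1 1 and 2; highest adjusted p 0.185), PNO1 without knockout DMSO 1 or 3 or knockout JQ1 1 or 2 (highest adjusted p 0.0851), and GNL3 without knockout DMSO 1 (adjusted p = 0.0791). None of these losses came with a change of sign, and RRP9, BOP1, WDR12, GAR1, DDX21, TSR1, WDR75 and POLR1E were called in both genotypes whichever library was left out.

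Most members called with JQ1 in 1 genotype were called in the other. The 2 drug contrasts compare different libraries. Both came from 1 fit over all 12 libraries with a shared spread per gene, so their calls are not independent. Of the 22 members called in either genotype, 15 were called in both, all 15 in the same direction: RRP9, NOC4L, BOP1 and NOP2 rose, and POLR1B, POLR1E, TAF1D, GAR1, GNL3, DDX21, WDR43, WDR75, TSR1, WDR12 and NOC3L fell. That was 83.3% of the wild-type calls and 78.9% of the knockout calls, against 76.2% and 73.3% over all tested genes. Log2 fold changes had the same sign in 39 of 42 members, a share that was not computed over all tested genes. As a description over genes of 1 cell line, the correlation of the 2 responses over the 42 genes was r = 0.934 (rho 0.916). Over all tested genes it was r = 0.661. That value takes in many genes of lower level than the members, and none was computed over genes of their level, so the 2 are not matched.

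The difference in drug response between the genotypes was tested directly, and no member passed. By edgeR the interaction called 0 of 42 members, against 0.134% of all tested genes (29 genes, 0.0323% higher and 0.101% lower). DESeq2 called 0 members too, and its share over all tested genes is not given here. The edgeR share of all tested genes with an unadjusted p under 0.05 is not given either, and among the members there was 1 such gene. That was NOLC1, with a difference in log2 fold change of -0.26 (95% interval -0.48 to -0.04, adjusted p = 0.511), named after its value was seen. NOLC1 was at 135, 135 and 132 CPM with DMSO and 171, 147 and 139 CPM with JQ1 in wild type. Knockout levels of NOLC1 were 152, 153 and 148 CPM with DMSO and 132, 154 and 145 CPM with JQ1. The JQ1 libraries lay above the DMSO libraries in wild type and overlapped them in the knockout. For WDR75 the interval of the difference was -0.45 to 0.10 and for NOC3L -0.47 to 0.04, so a stronger fall of either in the knockout was not shown with 3 libraries a group. The sign of the difference was negative in 28 of 42 members, a share that is not given over all tested genes.

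Few members were called between the genotypes in the main fit. Loss of MAPKAPK2 and a difference between clones cannot be told apart here. With DMSO, 2 members were higher in the knockout and 0 lower (4.76%), against 7.92% of all tested genes (3.47% higher and 4.44% lower) and 10.5% of the 9509 genes of such levels (6.02% higher and 4.53% lower). The 2 were FBL, whose libraries are given above and did not overlap (0.21 ± 0.06, adjusted p = 0.0389), and NHP2. NHP2 was at 109.6, 112 and 119 CPM in wild type with DMSO and at 132, 130.0 and 129.8 CPM in the knockout with DMSO. All 3 knockout libraries lay above the wild-type libraries, with a log2 difference of 0.20 ± 0.05 (adjusted p = 0.0289). With JQ1, NHP2 was at 121, 117 and 113 CPM in wild type and 128, 124 and 132 CPM in the knockout, a difference of 0.13 (adjusted p = 0.164).

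These 2 calls lie near the threshold. The count with DMSO ran from 0 to 7 when 1 library was left out: it was 0 without wild-type DMSO library 1 or 2 or knockout DMSO library 1 or 3, 1 without wild-type JQ1 library 1 or 2 or knockout DMSO library 2, and 7 without knockout JQ1 library 3. The difference was above 0 in 34 of 42 members, with a median of 0.09 against 0.00 over all tested genes. The share of all tested genes above 0 is not given here. Genes of at least 10 CPM were also called higher more often than lower in this contrast (6.02% against 4.53%). With library totals alone the 2 medians were 0.04 and -0.05. With JQ1, edgeR called 0 of 42 members between the genotypes, against 8.57% of all tested genes (3.01% higher and 5.56% lower). Among the 9509 genes edgeR called 11.5% (5.05% higher and 6.47% lower). DESeq2 called 1 member, and its share over all tested genes is not given here. By edgeR, 8 members had an unadjusted p under 0.05 with JQ1, 6 higher and 2 lower. The share of all tested genes under that unadjusted threshold is not given here, so these 8 are not read as a result about the members. The contrasts of genotype with DMSO and of drug in each genotype share their DMSO libraries, so their values are set side by side and not compared further.

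**Figure D3:**
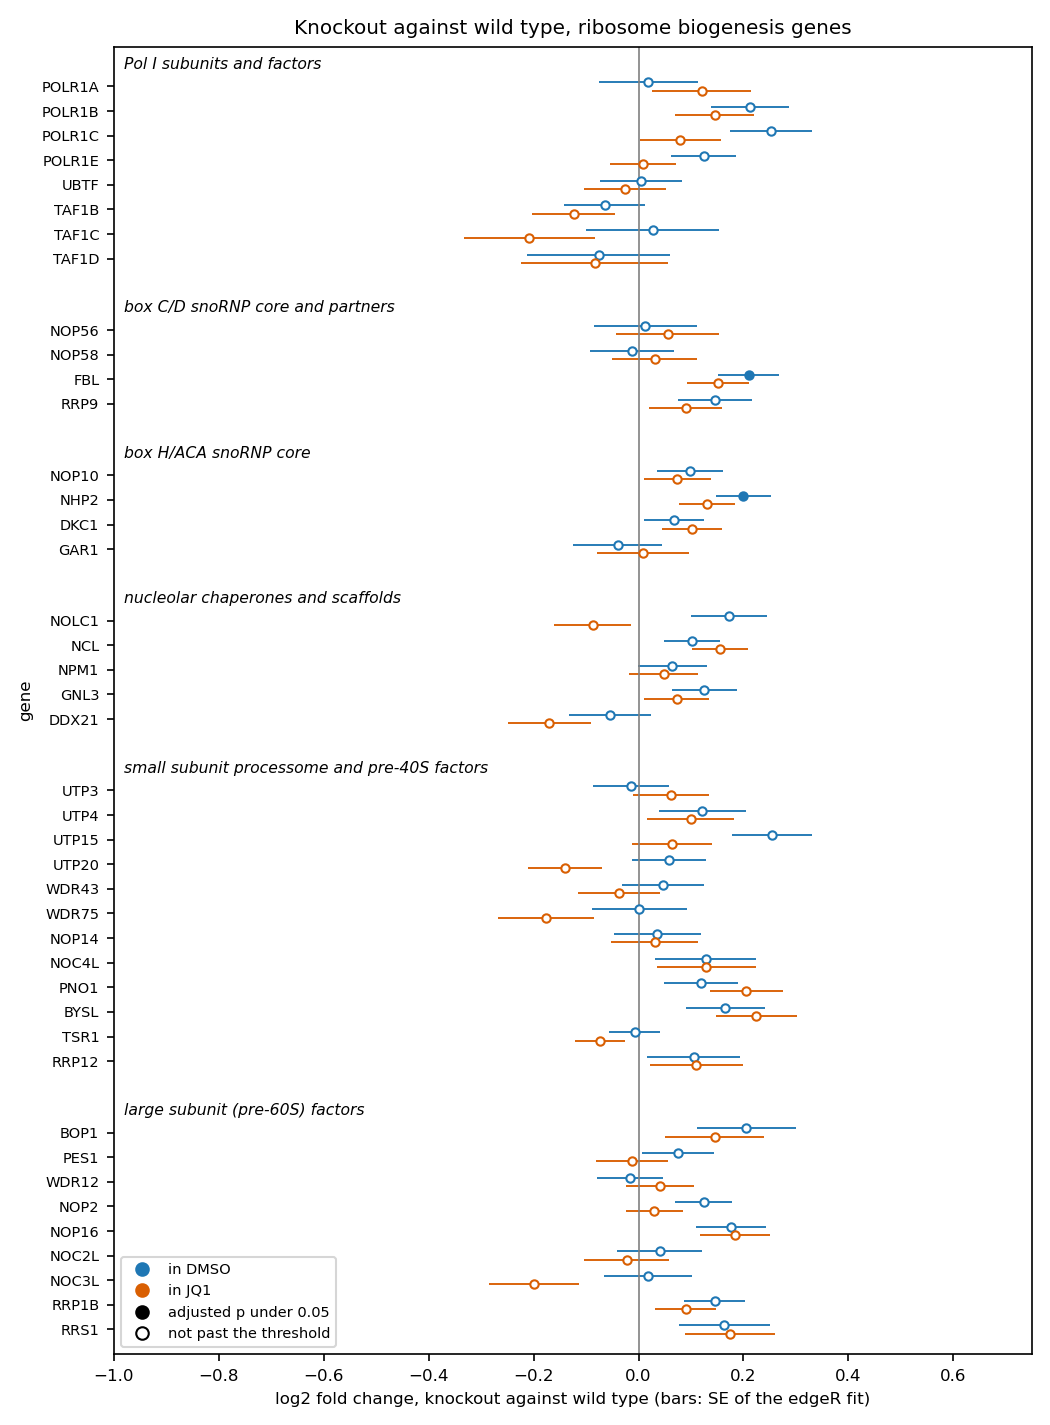
Log2 difference of each of the 42 members between knockout and wild type (x axis), with DMSO (blue) and with JQ1 (orange), by role; bars are the standard error of the edgeR fit and filled points passed an adjusted p of 0.05. Only FBL and NHP2 with DMSO are filled, and 34 of the 42 DMSO values lie to the right of 0.

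MYC, a transcription factor that binds many ribosome biogenesis genes, did not pass the test with JQ1 in either genotype. It was at 10.3, 10.5 and 10.9 CPM with DMSO and 9.2, 9.8 and 9.7 CPM with JQ1 in wild type. Knockout levels of MYC were 13.9, 15.6 and 15.3 CPM with DMSO and 11.6, 10.7 and 14.5 CPM with JQ1. The wild-type groups did not overlap and the knockout groups did, with log2 fold changes of -0.14 ± 0.11 (adjusted p = 0.352) in wild type and -0.27 ± 0.11 (adjusted p = 0.0601) in the knockout. MYC was higher in the knockout than in wild type with DMSO (0.50 ± 0.11, adjusted p = 0.00835), and with JQ1 the difference was 0.37 (adjusted p = 0.0515). MAX, its partner, passed in none of the 4 contrasts, with values of 0.19 and 0.13 for the drug. Whether the MYC difference between the genotypes has a part in the members' values was not tested.

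The direction of the members' drug response went with the GC content of their transcripts. The 9 members that rose in at least 1 genotype had a median GC content of 56.0% (range 41.6% to 65.2%), the 13 that fell 42.3% (37.7% to 57.9%), and the 20 that passed in neither 50.1%, against 48.4% over tested genes. As a description over the 42 members, the correlation of GC content with the log2 fold change was r = 0.676 in wild type and 0.673 in the knockout (rho 0.645 and 0.644), and over 21200 tested genes it was 0.114 and 0.0597. Over the 11125 tested genes above 5 CPM, nearer to the members in level, it was 0.213 and 0.175. BOP1, NOC4L and RRP9, the members with the largest rises, had a GC content of 65.2%, 64.8% and 60.9%. WDR75, NOC3L and DDX21, with the largest falls in the knockout, had 39.3%, 37.7% and 40.2%.

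An analysis with an offset for GC content and transcript length in each library was added after this was seen. It retained all 18 wild-type calls and 17 of the 19 knockout calls, losing NOP56 and NOP2, and called 24 and 22 members. The shares of all tested genes called with these offsets are not given here. The changes became more than 1.5 times smaller for 4 of the 18 wild-type calls and 2 of the 19 knockout calls, and more than 1.5 times larger for 0. In wild type these were NOC4L (0.37 to 0.17), BOP1 (0.52 to 0.34), PES1 (0.22 to 0.10) and NOC3L (-0.26 to -0.16), and in the knockout WDR12 (-0.32 to -0.17) and UTP20 (-0.39 to -0.25). RRP9 then had log2 fold changes of 0.33 and 0.34, WDR75 of -0.28 and -0.45, and POLR1E of -0.35 and -0.45. The correlation with GC content over the members was then 0.419 and 0.486. GC content and length were defined in 3 ways one after the other, each seen with its calls; the values here use the principal transcript, and with the other 2 definitions 16 or 18 of the wild-type calls and 18 of the knockout calls were retained.

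**Figure D4:**
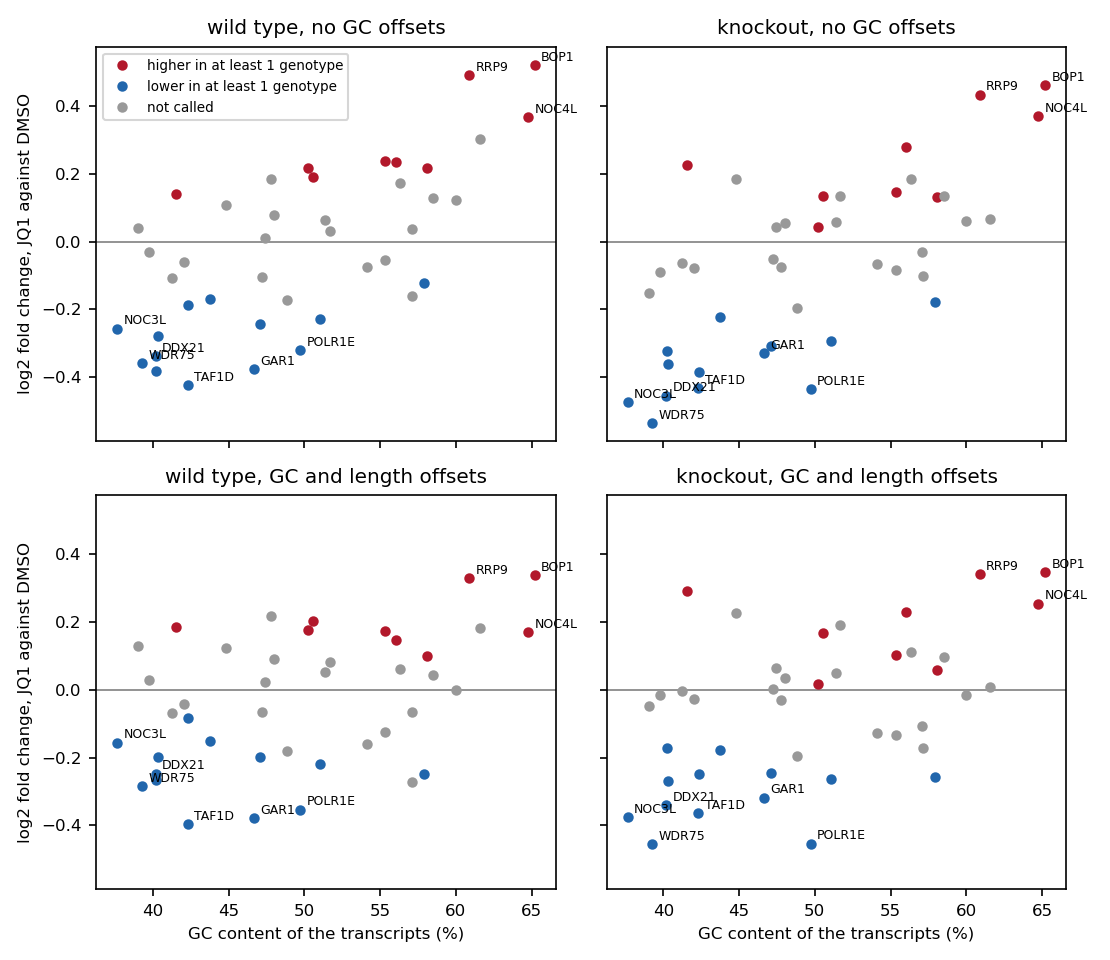
Log2 fold change with JQ1 (y axis) against the GC content of the principal transcripts in percent (x axis) for the 42 members, in wild type (left) and knockout (right), without (top) and with (bottom) offsets for GC content and length; red points rose and blue points fell in at least 1 genotype. The slope is flatter with the offsets, and BOP1, RRP9 and NOC4L stay above 0 and POLR1E, WDR75 and TAF1D below.

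With JQ1, ribosome biogenesis genes outside the set were called about as often as all tested genes, and less often than genes of at least 10 CPM. Of 110 tested genes in 5 lists (with NOL6, listed at 0 in all 12 libraries, not among them), 13 rose and 24 fell in wild type and 11 rose and 25 fell in the knockout, or 33.6% and 32.7% called, against 33.1% and 34.4% of all tested genes. Over all tested genes 16.9% rose and 16.2% fell in wild type, and 16.7% rose and 17.8% fell in the knockout. Among the 9509 tested genes of at least 10 CPM, 47.2% were called in wild type (30.4% higher, 16.8% lower). In the knockout 50.4% of them were called (29.5% higher, 20.9% lower). How many of the 110 reach that level was not counted. Among the other Pol I genes 1 rose and 4 fell of 7 in both genotypes. The 1 that rose was CD3EAP, the older symbol of POLR1G, the partner of POLR1E in the Pol I heterodimer, by 0.87 ± 0.17 in wild type (adjusted p = 0.0009) and 1.15 ± 0.17 in the knockout (adjusted p = 9.19e-05). CD3EAP overlaps ERCC1 on the opposite strand, and the sources used here do not say whether counting used the strand, so its value is uncertain. POLR1D, a small subunit shared with RNA polymerase III, fell by 0.30 (adjusted p = 0.000743) and 0.38 (adjusted p = 0.000102).

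Of 37 tested small subunit factors outside the set, 7 rose and 9 fell in each genotype. IMP3, a U3 snoRNP protein, rose by 0.43 in wild type (adjusted p = 0.000151) and 0.54 in the knockout (adjusted p = 1.97e-05), UTP14A fell by 0.29 in wild type (adjusted p = 0.000674), and NOB1, the nuclease that makes the final cut of the small subunit rRNA, fell by 0.49 in the knockout (adjusted p = 2.96e-06). Of 43 large subunit factors, 3 rose and 8 fell in wild type and 1 rose and 9 fell in the knockout, among them BRIX1, which fell by 0.61 (adjusted p = 7.91e-05) and 0.63 (adjusted p = 5.25e-05). Of 9 snoRNP assembly factors 1 rose and 0 fell in wild type and 1 rose and 1 fell in the knockout, and of 14 exosome genes 1 rose and 3 fell in wild type and 1 rose and 2 fell in the knockout.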

How the data were processed

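RNA depleted of rRNA was made into directional libraries, per the labels' protocols. The authors deposited estimated counts per gene symbol (kallisto, GRCh38.p10, per the submitters' processing notes) and a normalized signal for 32828 genes, which is each rounded count divided by a factor of the gene and library. Here the estimated counts were rounded and fitted in edgeR 4.0.16 (R 4.3.3): filterByExpr, TMM scaling, 1 quasi-likelihood fit of the 4 groups over 12 libraries, Benjamini-Hochberg adjustment over 21698 genes, threshold 0.05. CPM are scaled by TMM. SE is the log2 fold change divided by the root of F. Alternatives were DESeq2 1.42.0, limma 3.58.1 on log2(signal + 1), other scalings, no filter, a replicate block, the compared groups alone, a threshold of 0.01, each library left out, and offsets for GC content and length. GC content and length came from GENCODE 29 transcripts, and promoters from RefSeq. Depth was 25316900 to 34594300 counts per library. The method was tested on simulated counts. The members and lists were chosen with earlier results of these data known. Values in every library are given for the 2 largest rises and falls called in each contrast and for 11 members picked by role, and NOLC1 and MYC are given beside them. From lists outside the set, the gene with the smallest adjusted p in each direction may be named. Older symbols were matched through RefSeq synonyms, leaving out a synonym that is another gene's own symbol. Whether counting used the strand is not given in the sources used here.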

Additional observations from a re-analysis of the deposited data

How the results depend on the processing

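No member call reversed its sign in any of the 22 alternative analyses. The shares of all tested genes called under each alternative are not given here, so the counts of members below stand without them. In wild type 7 of 18 drug calls passed in all 22 (POLR1E, RRP9, GAR1, DDX21, TSR1, BOP1 and WDR12), and in the knockout 13 of 19. Neither FBL nor NHP2 did so for the genotypes. With library totals alone the counts of members higher and lower were 2 and 19 in wild type and 3 and 21 in the knockout, and 0 were higher for the genotypes with DMSO. With only the compared groups, 14 were higher and 12 lower in wild type, which turns the order of rises and falls, 3 were higher and 11 lower in the knockout, and 7 were higher for the genotypes with DMSO. limma called 7 lower in wild type. At a threshold of 0.01 wild type had 4 higher and 6 lower, the knockout 3 higher, and the genotypes with DMSO 0. Without the low-count filter the genotypes with DMSO had 0 higher. DESeq2 called 6 members higher between the genotypes with DMSO and 1 with JQ1. With offsets for GC content and length the genotypes had 5 higher with DMSO, and 5 higher and 1 lower with JQ1. With the other 2 definitions they had 7 and 6 higher with DMSO and 5 and 6 higher with JQ1. These offsets were chosen after seeing the data, and the cause of the differences was not tested. Leaving out 1 library at a time gave 3 to 12 higher and 6 to 12 lower in wild type, 3 to 6 higher and 10 to 14 lower in the knockout, and 0 to 7 higher between the genotypes with DMSO and 0 to 2 with JQ1. The wild-type falls were 6 or 7 without wild-type DMSO library 1, 2 or 3 or JQ1 library 1 or 2. Wild-type rises were 3 without wild-type JQ1 library 1 and 12 without knockout JQ1 library 3. Knockout rises were 3 without knockout DMSO library 3 or JQ1 library 1. Counting 2 more motifs moved the share of members with a match from 42.9% to 74.3%. The replicate block called 16 members in wild type, 18 in the knockout and 0 between the genotypes with DMSO. Of the 18 pairs of libraries with the same number in different groups, 5 deviated together with a correlation over 0.1 (range -0.505 to 0.561). Pairs with different numbers ranged from -0.621 to 0.436. Deviations from a mean of 3 libraries are tied to each other, so this check cannot decide whether the numbers pair the libraries.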

Other observations

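Of the 42 members, 9 hold snoRNA genes inside their annotated span (33 snoRNA genes, 29 of them in the count table and 8 with enough counts to be tested). Among the 9 host genes 1 rose and 4 fell with JQ1 in each genotype, and among the other 33 members 6 rose and 7 fell in wild type and 5 rose and 9 fell in the knockout. The shares over all tested genes were 16.9% higher and 16.2% lower in wild type, and 16.7% and 17.8% in the knockout. Of the 8 tested snoRNAs, SNORA51, which lies in NOP56, was lower with JQ1 in the knockout by a log2 fold change of -1.21 (edgeR, adjusted p = 0.0171), at a mean of 15 counts per library, while its host NOP56 rose there by 0.28. The other 7 passed in neither drug contrast. Libraries of this kind recover few RNAs as short as snoRNAs, so these counts say little about snoRNA levels.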
